A study of Mus musculus with 7 samples.

Results

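The CD28 and B7 costimulation family was followed in lesional skin of OX40L knockout (ox40l-/-) and OX40L wild type (ox40l+/+) mice. Its 10 members were taken by gene symbol from the platform annotation, and each had 1 probe set among the 23185 named genes on the arrays. The receptors were Cd28, Icos, Ctla4 and Pdcd1, and the ligands were Icosl, Cd80, Cd86, Cd274, Pdcd1lg2 and Cd276. OX40L (Tnfsf4) and its receptor OX40 (Tnfrsf4), a costimulatory pair of another family, were set beside them. Knockout skin gave 4 arrays and wild type skin 3, each from 1 sample. Both groups were male C57BL/6 mice, 9 weeks old, injected with bleomycin for 3 weeks, an agent used to induce skin fibrosis. No untreated skin was measured in these samples, so the groups differ by the OX40L allele under a shared treatment. The labels do not name the construction of the deleted allele, do not say in which cells it is lost, and leave unstated if the samples are different animals. A p-value here reflects how far these samples scatter, and that scatter may be technical in part.

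T cells that meet antigen need a second signal besides the T cell receptor, and the CD28 and B7 family supplies much of it. CD28 on T cells binds CD80 and CD86 on antigen-presenting cells and lowers the threshold of activation, whereas CTLA-4 binds the same ligands with higher affinity and limits it. ICOS, induced after activation, binds ICOSL and is known for follicular helper and effector responses, while PD-1 binds PD-L1 (Cd274) and PD-L2 (Pdcd1lg2) and dampens signalling. CD276, also called B7-H3, is a B7 homologue found on many non-immune cells. In skin, Langerhans cells, dermal dendritic cells and macrophages carry CD80 and CD86, and keratinocytes can be induced to carry PD-L1.

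In the RefSeq gene table of assembly GRCm38.p6, Cd28, Ctla4 and Icos follow each other on chromosome 1 with 0 protein-coding genes between neighbours, and Cd274 and Pdcd1lg2 are neighbours on chromosome 19. Cd80 and Cd86 share chromosome 16 with 24 protein-coding genes between them. RefSeq promoter entries were found for 7 of the 10 members, all but Cd28, Icos and Cd86. The 250 bases before the start were searched on both strands for an NF-kB motif (GGG, any 5 bases, CC), an interferon-stimulated response element (GAAA, any 2 bases, GAAA) and a gamma-activated site (TTC, any 3 bases, GAA). NF-kB and interferon signalling are known inducers of B7 ligands, which is why these letters were looked for. The NF-kB letters were in 4 of the 7 promoters, those of Icosl, Cd80, Pdcd1lg2 and Cd276, and in 45.8% of the 32851 promoters in the table. The other motifs were in 0 of the 7, against 2.98% of all promoters for the response element and 7.02% for the activated site. A match describes the letters in the window and no more. The promoters of 3 ligands are printed 5′ to 3′ on the gene's strand with the NF-kB letters in capitals, Icosl because it had the smallest p in the family, Cd80 as a classical B7 ligand and Pdcd1lg2 for the neighbouring ligand pair.
Icosl, GRCm38.p6 chr10:78069118-78069367, plus strand: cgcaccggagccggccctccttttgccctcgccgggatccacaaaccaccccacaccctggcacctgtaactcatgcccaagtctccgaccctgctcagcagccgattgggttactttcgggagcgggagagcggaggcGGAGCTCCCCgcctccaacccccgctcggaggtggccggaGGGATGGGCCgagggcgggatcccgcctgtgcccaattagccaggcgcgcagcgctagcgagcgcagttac
Cd80, GRCm38.p6 chr16:38458683-38458932, plus strand: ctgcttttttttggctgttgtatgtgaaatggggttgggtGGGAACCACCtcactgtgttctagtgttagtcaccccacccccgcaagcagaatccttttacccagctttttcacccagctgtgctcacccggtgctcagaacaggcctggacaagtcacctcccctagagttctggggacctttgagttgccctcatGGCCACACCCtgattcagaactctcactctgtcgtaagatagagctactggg
Pdcd1lg2, GRCm38.p6 chr19:29410669-29410918, plus strand: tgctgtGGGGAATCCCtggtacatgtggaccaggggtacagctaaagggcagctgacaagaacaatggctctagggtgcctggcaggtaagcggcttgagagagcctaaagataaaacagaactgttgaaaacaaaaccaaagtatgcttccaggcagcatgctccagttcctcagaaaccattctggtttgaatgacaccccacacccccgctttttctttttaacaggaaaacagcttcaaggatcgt
In Icosl the capitals begin at -111 (minus strand) and -71 (plus strand) from the start, in a window of 68.8% G and C. In Cd80 they begin at -210 (plus strand) and -52 (minus strand), and in Pdcd1lg2 the match at -244 reads on both strands.

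The arrays were not equally alike, and this touches every value that follows. Wild type replicates 1 and 3 had an SD over all probe sets of 1.72 and 1.22, against 1.38 to 1.48 on the other 5 arrays. Of the 11739 genes with mean levels in the range of the members, 34.4% had their lowest value on wild type replicate 1 and 30.3% their highest there. On wild type replicate 3, 29.4% had their highest value and 16.8% their lowest. Of the 10 members, 5 were lowest and 1 was highest on wild type replicate 1. On wild type replicate 3, 5 members were highest and 1 was lowest. The olfactory receptor genes described below, which show where values lie when little RNA is bound, shifted as well. Wild type replicate 1 had their lowest array median (2.0), wild type replicate 3 their highest (2.92), and the remaining arrays lay between 2.45 and 2.56. How much of the members' spread in wild type follows this shift was not tested. Skin keratinocyte markers were bright on all arrays, with the basal keratin Krt14 between 10.24 and 10.67 in knockout and between 9.54 and 10.94 in wild type on the log2 scale. The T cell marker Cd3e lay between 3.21 and 4.06 in knockout and between 3.26 and 3.92 in wild type, near the array medians of 3.45 to 3.74. Tnfsf4, the targeted gene, was at 3.35, 2.82, 2.81 and 2.81 in knockout and at 2.53, 2.60 and 3.65 in wild type. The groups overlapped, and since the position of its probes relative to the deletion is unknown these values check nothing about the labels.

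No member of the family passed the test for a difference between the genotypes. In limma, 0 of the 10 had an adjusted p under 0.05, where 0.00431% of all genes were called, and 0 had an unadjusted p under 0.05, where 1.88% of all genes did. The genotypes overlapped in all 10 members, while they did not overlap in 1.91% of all genes. The mean was higher in knockout for 7 members and lower for 3, with differences (knockout minus wild type) from -0.25 for Icosl to 0.41 for Cd86. The median difference was 0.104 over the members, 0.048 over the 4 receptors and 0.126 over the 6 ligands, against 0.01 over all genes. Without wild type replicate 1 the median over the members was -0.086, and without both wild type replicates 1 and 3 it was 0.004. In a bulk skin sample, fewer cells of a type and less RNA per cell cannot be told apart.

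**Figure D1:**
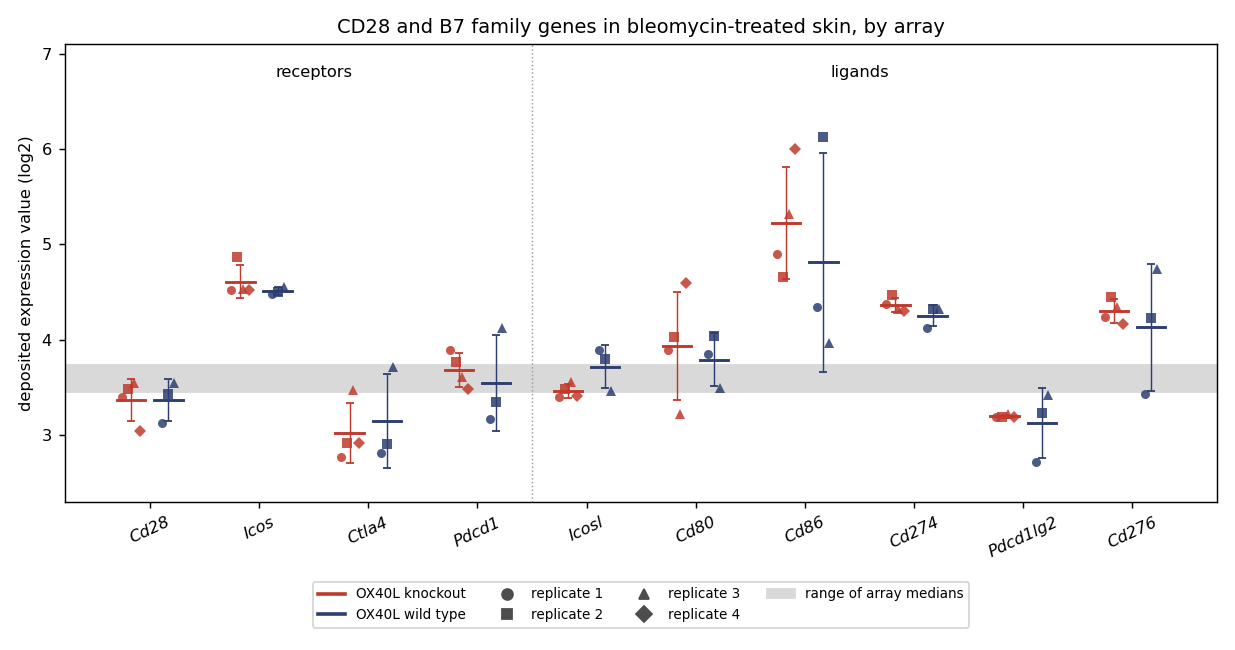
Deposited log2 values of the 10 family members on the 7 arrays, with knockout (red) left of wild type (blue), one marker shape per replicate number, bars for the mean and whiskers for the SD. The grey band is the range of the array medians over all probe sets, 3.45 to 3.74, and red and blue points overlap in every gene.

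Among the receptors, Cd28, the constitutive costimulatory receptor of T cells, had nearly equal means. Its log2 values were 3.40, 3.48, 3.55 and 3.04 in knockout and 3.12, 3.44 and 3.55 in wild type, below the array median on all 7 arrays. The highest values of both groups were alike and the lowest belonged to knockout replicate 4, so the groups covered the same range. The mean ± SD of Cd28 was 3.37 ± 0.22 over the 4 knockout arrays and 3.37 ± 0.22 over the 3 wild type arrays, a difference of -0.001 (95% confidence interval -0.42 to 0.42). Its interval excluded a difference of 1.5-fold in either direction on this scale. Cd28 exceeded 79.7% of the olfactory receptor genes described below, and signal near background limits what the interval says about RNA.

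Ctla4, the inhibitory receptor for the same ligands, had an SD of 0.368 over the 7 arrays, against 0.204 for Cd28. It was at 2.77, 2.92, 3.48 and 2.92 in knockout and at 2.82, 2.91 and 3.72 in wild type. One array in each group, knockout replicate 3 and wild type replicate 3, stood above the other 5. The difference was -0.13 (SE 0.28, interval -0.77 to 0.52; limma adjusted p = 0.9995) and turned to 0.16 without wild type replicate 3.

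Icos, the inducible costimulator, had one of the tightest profiles of the family. Its values were 4.52, 4.86, 4.53 and 4.52 in knockout and 4.48, 4.50 and 4.56 in wild type. All arrays but knockout replicate 2 lay within a narrow band, and that array was the highest. The mean ± SD of Icos was 4.61 ± 0.17 over the knockout arrays and 4.51 ± 0.04 over the wild type arrays. The difference was 0.10 (SE 0.14), and 0.01 without knockout replicate 2.

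Pdcd1, which encodes the inhibitory receptor PD-1, was at 3.89, 3.76, 3.61 and 3.48 in knockout and at 3.17, 3.35 and 4.12 in wild type. The 4 knockout values lay between the second and the highest wild type value. The difference was 0.14 (SE 0.25, interval -0.44 to 0.72; limma adjusted p = 0.9995). It was 0.43 without wild type replicate 3, with an unadjusted limma p of 0.0329 and an adjusted p of 0.403, and -0.049 without wild type replicate 1.

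Among the ligands, Icosl, the partner of ICOS, had the smallest p of the family and the largest difference below 0. Its values were 3.40, 3.48, 3.56 and 3.41 in knockout and 3.90, 3.80 and 3.46 in wild type. Wild type replicates 1 and 2 stood above all knockout arrays, and wild type replicate 3 fell among them. The mean ± SD of Icosl was 3.47 ± 0.073 over the knockout arrays and 3.72 ± 0.23 over the wild type arrays. The difference was -0.25 (SE 0.15, interval -0.60 to 0.10), with a limma adjusted p of 0.9995, an unadjusted p of 0.134 and a two-sided exact permutation p of 0.114, where 35 splits allow no p below 0.0286. Its sign held with each single array left out, between -0.381 and -0.163. The value without wild type replicate 3, -0.381, had an unadjusted limma p of 0.0164 and an adjusted p of 0.377. With the number in the sample codes as a block, which leaves a contrast of knockout replicate 3 with wild type replicate 3, the difference was 0.10.

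Cd86, the B7 ligand carried by resting as well as activated antigen-presenting cells, had the widest spread of the family. It was at 4.90, 4.66, 5.31 and 6.00 in knockout and at 4.34, 6.12 and 3.97 in wild type. The highest value and the 2 lowest were all wild type, and the knockout arrays lay between them. The mean ± SD of Cd86 was 5.22 ± 0.59 over the knockout arrays and 4.81 ± 1.15 over the wild type arrays. Its difference of 0.41 (SE 0.55; limma adjusted p = 0.9995) had the only interval in the family that reached a 2-fold difference, from -0.89 to 1.71. Its size and sign rested on single arrays. It was 1.06 without wild type replicate 2 (limma adjusted p = 0.982), -0.013 without wild type replicate 3 and -0.90 without both wild type replicates 1 and 3. The mean level of 16 antigen-presenting cell markers was 4.59, 4.79, 4.69 and 4.70 in knockout and 4.94, 4.73 and 4.54 in wild type. It was highest on wild type replicate 1, where Cd86 was low, and lowest on wild type replicate 3, where Cd86 was lowest too. Single markers did not share 1 order, since the macrophage receptor Csf1r was highest on wild type replicate 1 (4.68) and the Langerhans cell lectin Cd207 lowest there (3.45). The part of antigen-presenting cell content in the Cd86 values was not tested.

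Cd80, the B7 ligand induced on activated antigen-presenting cells, was at 3.90, 4.03, 3.22 and 4.59 in knockout and at 3.85, 4.04 and 3.49 in wild type. Knockout replicates 3 and 4 held the lowest and the highest value of all 7 arrays, so the wild type range lay inside the knockout range. The difference was 0.14 (SE 0.32, interval -0.61 to 0.89; limma adjusted p = 0.9995), and it was -0.079 without knockout replicate 4 and 0.378 without knockout replicate 3.

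The ligands of PD-1 varied unequally, with an SD over the 7 arrays of 0.103 for Cd274 and 0.213 for Pdcd1lg2. Cd274 was at 4.37, 4.47, 4.32 and 4.30 in knockout and at 4.12, 4.32 and 4.32 in wild type, and its SD over the 7 arrays, 0.103, was lower than that of nearly all genes (percentile 5.17). The value on knockout replicate 3 and wild type replicates 2 and 3 was identical, as the median polish in RMA can return. Its difference was 0.11 (SE 0.13, interval -0.19 to 0.41), and the sign held with each single array left out (0.047 to 0.144). Pdcd1lg2 was at 3.19, 3.19, 3.23 and 3.19 in knockout and at 2.72, 3.24 and 3.42 in wild type. The wild type arrays spread on both sides of a narrow knockout group, and the difference was 0.07 (SE 0.18), or -0.133 without wild type replicate 1. For both ligands the interval excluded a 1.5-fold difference on this scale, as it did for Cd28 and Icos. The intervals of the other 6 members reached it. Pdcd1lg2 had the same value on knockout replicates 1, 2 and 4. It exceeded 75.0% of the olfactory receptor genes described below, and Cd28 exceeded 79.7%. The intervals bound the array values, and signal near background limits what they say about RNA.

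Cd276, the B7 homologue also called B7-H3, was at 4.24, 4.45, 4.34 and 4.16 in knockout and at 3.43, 4.22 and 4.74 in wild type. The knockout arrays were close together, and wild type replicates 1 and 3 were the lowest and the highest of all. Its difference was 0.17 (SE 0.29, interval -0.52 to 0.86; limma adjusted p = 0.9995). Without wild type replicate 1 it was -0.183 and without wild type replicate 3 it was 0.474.

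**Figure D2:**
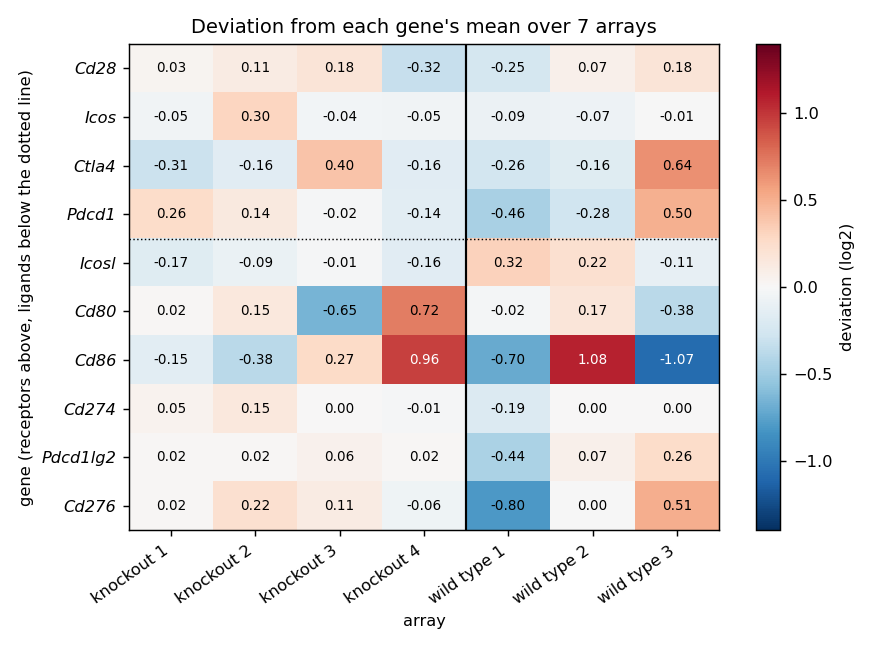
Deviation of each member from its own mean over the 7 arrays (log2), with arrays in columns and genes in rows; red is above and blue below the mean. Cd86 runs from -1.07 on wild type replicate 3 to 1.08 on wild type replicate 2, and wild type replicate 1 is blue for all members but Icosl.

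**Figure D3:**
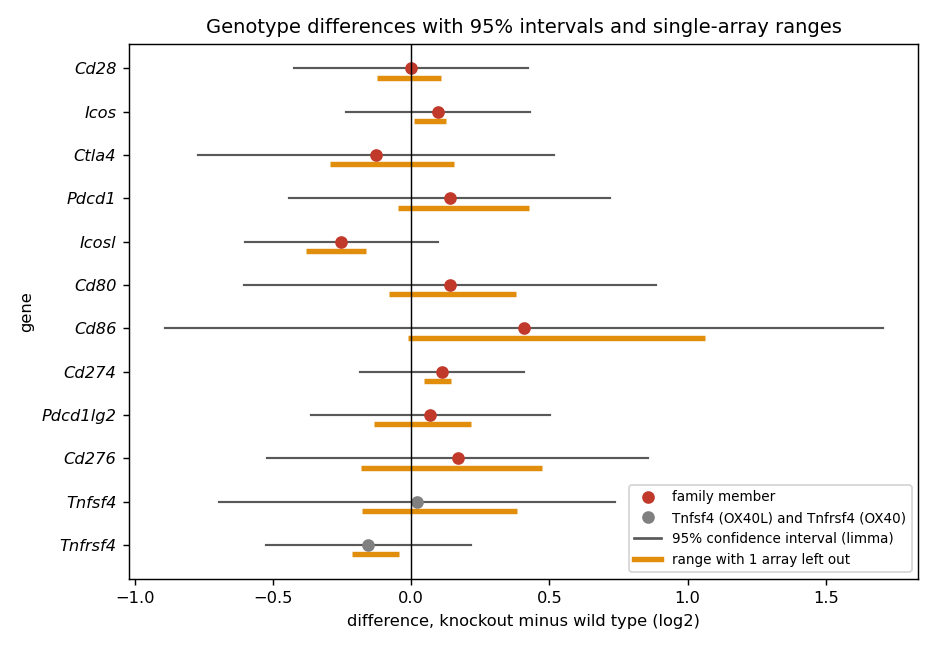
Difference between genotypes (knockout minus wild type, log2) for the 10 members and for Tnfsf4 and Tnfrsf4, with limma's 95% confidence interval (grey line) and the range of the difference when 1 array is left out (orange bar). All 12 grey lines cross 0, and the orange bars of Icos, Icosl, Cd274 and Tnfrsf4 stay on one side of it.

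The members also differed in how much they varied. The SD within knockout had a median of 0.174 over the members and 0.188 over all genes, and within wild type 0.32 and 0.387. Wild type had the larger SD in 7 of the 10 members, against 76.9% of all genes. Similar profiles were sought for the 5 members whose SD over the 7 arrays was above the median of all genes. The measure was the root mean square difference of deviations over the 7 arrays. Only 17878 of the 23185 named genes were searched, so genes outside the search may lie closer than those named here. Ctla4 was closest to Tigit, another inhibitory receptor of T and NK cells (0.0733), and then to Elac1 (0.0884). Tigit was at 2.35, 2.28, 2.90 and 2.35 in knockout and at 2.35, 2.32 and 3.13 in wild type, so knockout replicate 3 and wild type replicate 3 stood above the rest as in Ctla4. Both genes were below the array median on all 7 arrays. The mean of Tigit, 2.53, was close to the median of 2.51 for the olfactory receptor genes described below, so its profile may be largely background. Cd86 was closest to Bola3, a mitochondrial iron-sulfur cluster factor (0.209), and Gbe1, the glycogen branching enzyme (0.236). Cd276 was closest to Cfap46 (0.035) and to Cryaa, a crystallin of the eye lens (0.0365), Pdcd1 to Tedc2 (0.0693) and Tmem82 (0.0753), and Cd80 to the sodium-proton exchanger Slc9a7 (0.105) and the carnitine synthesis enzyme Bbox1 (0.118). None of these 10 genes passed limma (adjusted p = 0.9995 for each), and the likeness rests on 7 arrays of which 2 stand apart.

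Signal levels were near the middle of the arrays. Mean log2 levels ran from 3.08 for Ctla4 to 5.04 for Cd86, with a median of 3.75 over the members and 3.598 over all genes. Levels of different probe sets cannot be ranked against each other, because probes differ in affinity, but the olfactory receptor genes, which skin is not known to express widely, show where values lie when little RNA is bound. The 1082 olfactory receptor genes had a median mean level of 2.51 and a 95th percentile of 4.52, and 8 of the 10 members lay below that percentile. Icos and Cd86 lay above it, and the members exceeded between 72.1% (Ctla4) and 98.2% (Cd86) of these genes. All 10 members remained when the dimmest 30% of genes were left out, and 6 remained without the dimmest 50%.

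**Figure D4:**
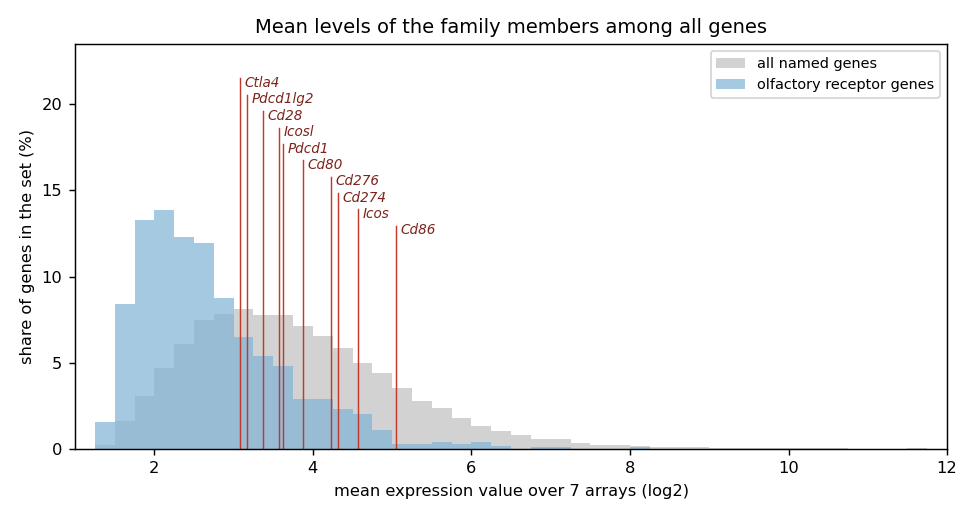
Share of genes (%) by mean log2 value over the 7 arrays, for all 23185 named genes (grey) and the 1082 olfactory receptor genes (blue), with a red line at the mean of each family member. The members lie between 3.08 and 5.04, within the upper part of the olfactory receptor distribution.

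The wider setting was described with 9 lists of immune, signalling and checkpoint genes, of which 110 of 115 genes were analysed here, and 2 lists of 21 skin makeup markers. In limma 0 of the 110 and 0 of the 21 had an adjusted p under 0.05. An unadjusted p under 0.05 was found in 2 of the 110 (1.82%) and 0 of the 21, against 1.88% of all genes. The sign of the median difference turned in 9 of these 11 lists when 1 array was left out, so the medians that follow are given with the range over such omissions. Those 2 were Cd3d, a subunit of the T cell receptor complex, and Itgam, an integrin of myeloid cells. Cd3d was at 3.61, 3.28, 3.15 and 3.64 in knockout and at 2.86, 3.01 and 2.66 in wild type, a difference of 0.58 (SE 0.18; limma unadjusted p = 0.0134, adjusted p = 0.9995). Cd3g, another subunit, was at 4.33, 4.28, 4.39 and 4.26 in knockout and at 4.21, 4.25 and 3.83 in wild type, and differed by 0.22 (SE 0.15). In both subunits every knockout array was above every wild type array. They were the only 2 of the 110 genes whose groups did not overlap (1.82%), against 1.91% of all genes, so this share was near that of all genes. In the same complex Cd3e and Cd247 overlapped and differed by -0.09 (SE 0.25) and 0.04 (SE 0.21), Cd247 being named after its value was seen. The whole list of 12 T cell genes had 9 higher and 3 lower means in knockout and a median difference of 0.038 (-0.085 to 0.15), and its mean level was between 3.5 and 3.65 in knockout and between 3.22 and 3.69 in wild type.

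Signalling genes downstream of CD28 and the T cell receptor were lower on average in 10 and higher in 7 of the 17 analysed, with a median of -0.071 (-0.098 to -0.01). Malt1 and Bcl10, partners in the complex that leads from the T cell receptor to NF-kB, differed by -0.28 (SE 0.14) and -0.33 (SE 0.19), and the kinase Akt1 by -0.25 (SE 0.17). Bcl10 had 1 value, 4.97, on knockout replicates 2 and 4 and wild type replicates 2 and 3, and was highest on wild type replicate 1 (5.47). Malt1 had the same value, 4.07, on knockout replicate 4 and wild type replicate 3. Inhibitory phosphatases and regulators had lower means in 9 of 11 members, with a median of -0.161 and 0 members past the test. Among them were Cmtm6, which keeps PD-L1 on the cell surface, at -0.47 (SE 0.29), and Rc3h1 and Rc3h2, the RNA-binding Roquin proteins that limit Icos transcripts, at -0.35 (SE 0.32) and -0.44 (SE 0.46). The mean level of this list was 4.54 to 4.82 in knockout, against 5.46, 4.83 and 4.36 in wild type. The median difference was 0.053 with wild type replicate 1 left out and -0.51 with wild type replicate 3 left out.

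Other checkpoint receptors and ligands of the immunoglobulin superfamily and their partners were split, with 8 higher and 8 lower means in knockout and a median of -0.022 (-0.114 to 0.117). Vtcn1, the B7 homologue also called B7-H4, was at 4.00, 4.24, 4.198 and 3.96 in knockout and at 4.86, 4.24 and 4.29 in wild type (difference -0.36, SE 0.19), with wild type replicate 1 above the rest. Pvr and Nectin2, ligands of TIGIT and CD226, differed by -0.36 (SE 0.23) and -0.39 (SE 0.31). Regulatory and follicular helper T cell genes were split 6 and 6, with a median of -0.031 (-0.15 to 0.09). Among these, Foxp3, the regulatory T cell factor, differed by 0.10 (SE 0.13) and Ikzf2, the Helios factor, by 0.51 (SE 0.23). The ectonucleotidase Nt5e differed by -0.55 (SE 0.30) and the interleukin-2 receptor Il2ra by -0.41 (SE 0.28). Nt5e was at 5.85 on wild type replicate 1 and at most 4.70 on the other arrays. Il2ra was at 4.13 on wild type replicate 3 and at most 3.11 on the other arrays. T cell effector cytokines had 6 higher and 3 lower means and a median of 0.103 (-0.086 without wild type replicate 1 and 0.236 without wild type replicate 3), with Il2 at 0.38 (SE 0.21), Tgfb1 at -0.27 (SE 0.16) and Il13 at 0.26 (SE 0.27).

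Antigen-presenting cell markers had 6 higher and 10 lower means in knockout and a median of -0.047, which was -0.136 without wild type replicate 1 and 0.07 without wild type replicate 3. Itgam was at 4.37, 4.805, 4.44 and 4.92 in knockout and at 5.25, 5.50 and 4.805 in wild type (difference -0.55, SE 0.22; limma unadjusted p = 0.0426, adjusted p = 0.9995), and wild type replicate 3 had the same value as knockout replicate 2. Adgre1, another macrophage marker, differed by -0.23 (SE 0.18), Cd207 by 0.21 (SE 0.18) and Itgax, the dendritic cell integrin, by 0.09 (SE 0.15). The macrophage markers did not share 1 direction, since Csf1r differed by -0.286 and Cd68 by 0.295. Cd68 was named after its value was seen. B cell markers had 4 higher and 2 lower means (median 0.102, or -0.031 without wild type replicate 1, -0.002 without knockout replicate 2 and 0.302 without wild type replicate 3), with Pax5 at 0.54 (SE 0.30), Ms4a1 at 0.18 (SE 0.18) and Blk at -0.23 (SE 0.31). Interferon-gamma response genes were set here because interferon-gamma is a known inducer of Cd274. This list also held the cytokine gene Ifng, its receptor genes Ifngr1 and Ifngr2, and Jak1 and Jak2, so its median covers more than the response. The list had 8 higher and 3 lower means (median 0.132, or -0.033 without wild type replicate 3). Among its genes were Gbp2 at 0.24 (SE 0.19), Ifngr1 at 0.60 (SE 0.48) and Cxcl10 at -0.29 (SE 0.26).

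Marker lists also described the makeup of the skin samples. Keratinocyte and dermal fibroblast markers had 6 higher and 6 lower means in knockout (median 0.062, or 0.391 without wild type replicate 1 and -0.34 without wild type replicate 3), and their mean level was between 6.95 and 7.13 in knockout and between 6.20 and 7.74 in wild type. Muscle, hair follicle and adipocyte markers had 6 higher and 3 lower means (median 0.223, range 0.106 to 0.316). The 3 lower were the hair follicle keratins of the list and the 6 higher its muscle and adipocyte genes. Its median therefore describes no single tissue. The inner root sheath keratin Krt25 was at 5.78, 3.84, 5.12 and 2.74 in knockout and at 10.61, 7.14 and 4.08 in wild type, while the adipocyte hormone Adipoq was at 6.91, 7.25, 7.61 and 7.56 in knockout and at 7.22, 6.97 and 5.81 in wild type. The mean level of this second list was between 7.06 and 7.74 in knockout, against 9.17, 8.08 and 6.43 in wild type, so wild type replicates 1 and 3 held its extremes. The part of tissue makeup in the family's values was not tested.

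Tnfrsf4, which encodes OX40, was at 4.65, 4.64, 4.40 and 4.79 in knockout and at 4.67, 4.66 and 4.99 in wild type, a difference of -0.16 (SE 0.16, interval -0.53 to 0.21; limma adjusted p = 0.9995). The difference was -0.045 without wild type replicate 3. With the number in the sample codes as a block, which leaves only knockout replicate 3 against wild type replicate 3, it was -0.598.

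**Figure D5:**
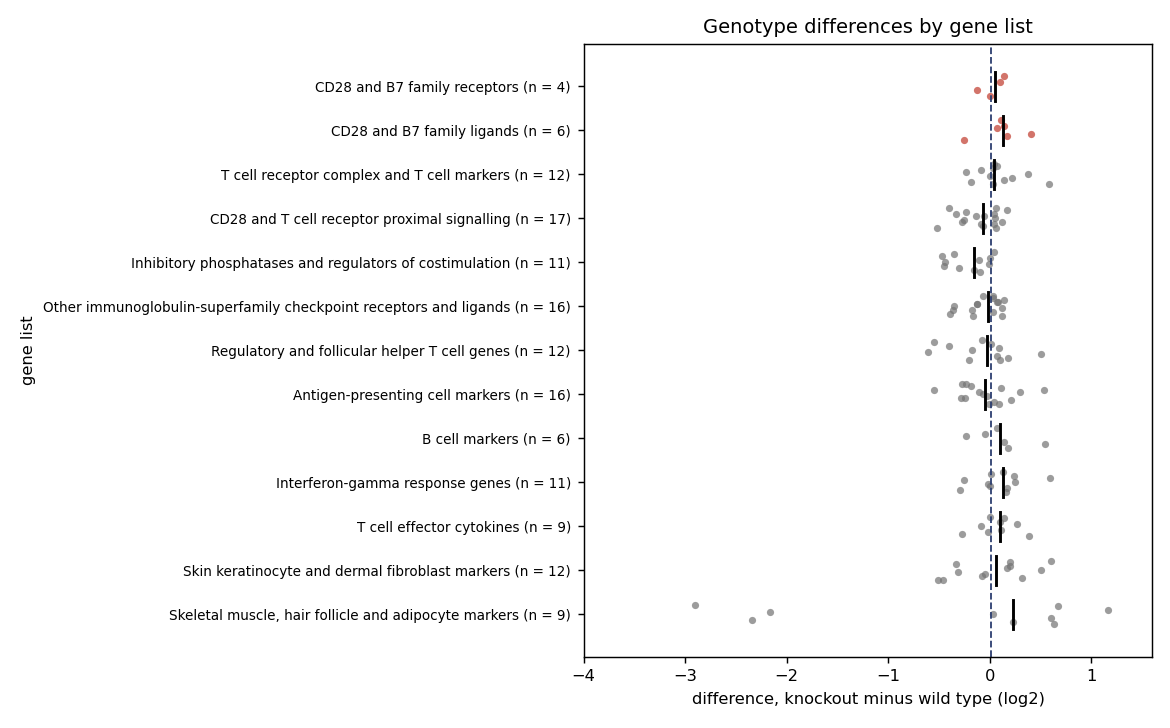
Differences between genotypes (knockout minus wild type, log2) of single genes (points) by list, with the list's median (black bar) and the median of all genes (dashed line, 0.01); the family is in red. Family medians of 0.048 for receptors and 0.126 for ligands lie within the -0.161 to 0.223 covered by the medians of the other lists, and the lowest points, to -2.90, are hair follicle keratins.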

How the data were processed

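Each of 7 skin samples was run on 1 Affymetrix array and assigned to its group by the title, which states the genotype. The authors deposited log2 values from RMA (robust multi-array average), as named in the submitters' processing notes. Its version, the definition of the probe sets and the genome build are not given in the sources used here. Values were used as deposited. Probe sets were named from the platform annotation, with symbols updated through Entrez numbers in a RefSeq table (GRCm38.p6). Of 25206 probe sets, 23185 had 1 gene symbol, 0 had several and 2021 had none here.

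The comparison of knockout with wild type used limma 3.58.1 under R 4.3.3 (lmFit and eBayes, 2 groups, two-sided), fitted on all named genes with Benjamini-Hochberg adjustment at 0.05. No dim probe sets were filtered out. Single genes also had an exact permutation test, two-sided, with 35 possible splits. Precision is limited by how few arrays there are.

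The family members, lists and tests were chosen with earlier results of these data known. Named genes were the members, Tnfsf4, Tnfrsf4, up to 3 genes with the smallest p from each wider list, and defining markers. Also named were the 2 nearest profiles, among the 17878 genes searched, of each member with an SD above the median. Alternatives covered variance moderation, dim-gene filters, normalization, array weights (gene by gene, since the default did not converge), blocks, all probe sets and single arrays left out. Leaving out wild type replicates 1 and 3 together, and fitting the array SD as a covariate, are additions chosen after seeing the data. The limma step was first run on simulated data with known changes. Tables and figures used Python 3.11.15 and matplotlib 3.10.9.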

Additional observations from a re-analysis of the deposited data

Results flagged for a closer look

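Dixon's gap ratio was computed in the 4 knockout arrays for the 10 members, Tnfsf4 and Tnfrsf4, and chance alone picks out about 1 in 20 such groups. That rate assumes values without ties, and each group named below held tied values. Icos on knockout replicate 2 was far above the other knockout arrays, at 4.864, with a gap of 0.967 of the group's range. Pdcd1lg2 on knockout replicate 3, at 3.226, stood apart from the other 3 knockout arrays only because these shared 1 identical value. Tnfsf4 on knockout replicate 1, at 3.354, was above the other knockout arrays by 0.983 of the range, and only wild type replicate 3 was higher.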

How the results depend on the processing

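In limma, 0 members and 0 genes of the wider lists passed the adjusted threshold under any alternative run. The 1 gene called over all named genes became 0 with a trend and robust moderation, both renormalizations, all 3 blocks, all probe sets, each single array left out and both added runs. The count of members at an unadjusted p under 0.05 was 1 with array weights, 1 without wild type replicates 1 and 3 together, and 0 to 2 with single arrays left out. The median over the members was between -0.086 and 0.131 when 1 array was omitted. With the code number as a block, which leaves knockout replicate 3 against wild type replicate 3, it was -0.112.

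Deviations of same-numbered arrays from their group means correlated at -0.0858, -0.145 and 0.0341. Arrays with different numbers were not compared in this way, so these values cannot decide if the replicate numbers pair the samples. The replicate block turned Cd28 to 0.107 and Cd80 to -0.079, the values without knockout replicate 4, which has no partner. The code number as a block turned Icos (-0.027), Pdcd1 (-0.513), Icosl (0.099), Cd80 (-0.273), Pdcd1lg2 (-0.197), Cd276 (-0.401) and Tnfsf4 (-0.843). That block leaves only the contrast of knockout replicate 3 with wild type replicate 3, an array that stands apart. Array weights turned Ctla4 (0.084), Cd80 (-0.105), Cd86 (-0.759) and Pdcd1lg2 (-0.023). Leaving out wild type replicates 1 and 3 together turned Ctla4 (0.109), Cd80 (-0.105), Cd86 (-0.902) and Pdcd1lg2 (-0.040). Quantile normalization turned Tnfsf4 (-0.057), and the array SD as a covariate turned Tnfsf4 (-0.099) and Pdcd1lg2 (-0.0019). With single arrays left out, the ranges that crossed 0 were -0.124 to 0.107 for Cd28, -0.295 to 0.156 for Ctla4, -0.049 to 0.427 for Pdcd1, -0.079 to 0.378 for Cd80, -0.013 to 1.062 for Cd86, -0.133 to 0.217 for Pdcd1lg2, -0.183 to 0.474 for Cd276 and -0.178 to 0.382 for Tnfsf4. The cause of these changes was not tested. Cd274 turned in 0 of 19 alternatives, although with the code number as a block its difference was 0, since knockout replicate 3 and wild type replicate 3 share 1 value. Among the members, 8 lay below the 95th percentile of olfactory receptor genes, where signal over background limits what can be seen.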

Other observations

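The codes in the sample descriptions share numbers whose meaning the labels do not give. Knockout replicate 3 and wild type replicate 3, which share 1 such number, held the 2 highest values of Cd28 (3.55 and 3.55) and of Ctla4 (3.48 and 3.72) and the 2 lowest of Cd80 (3.22 and 3.49). In Ctla4 and Cd80 the other 5 arrays lay clearly apart from these. Such a pair of extremes occurred in these arrays in 3 of the 10 members and in 14.5% of all genes. Wild type replicates 1 and 2, which share another number, held the 2 highest values of Icosl and the 2 lowest of Icos and Pdcd1, against 21.4% of all genes. Knockout replicates 1 and 2 held the 2 highest values of Cd274, against 6.9% of all genes. These patterns were seen after the values were known and were not tested.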
